A study of Dendrobaena veneta with 18 samples.

Results

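In the gut of the earthworm Dendrobaena veneta, 11 assembled genes were high in all 6 gut libraries of worms kept in soil with carbamazepine and at or near 0 in both control gut libraries. They were chosen from 243619 assembled genes, called features here, by their gut values alone. A feature was kept when its lowest value in the 6 exposed gut libraries was at least 5 CPM (counts scaled to the library total) and also no less than 3 times its higher value in the 2 control guts. The means of both doses also had to lie within 3-fold of each other, a criterion that removed none. All features that met the rule are included, since at most 200 were to be kept. Lowest exposed values of at least 5 CPM were reached by 11755 features, and the 11 are 0.0936% of them. The gut difference between exposed and control worms is therefore how these features were found, and it is given below as a description without a test.

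Adult worms lived for 28 days in topsoil spiked with methanol, the solvent, and holding 0, 0.6 or 10 mg/kg of carbamazepine. These groups are called control, low dose and high dose. Poly(A)-selected RNA was sequenced from the gut and from the cerebral ganglion. The gut groups hold 2 control, 3 low dose and 3 high dose libraries, and each ganglion group holds 3. Control gut replicate 1 was not analysed here. The labels do not say whether a replicate is 1 animal or a pool, so a p-value here reflects the spread between these libraries, which may be technical.

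Carbamazepine is a medicine against epilepsy that acts on sodium channels of nerve cells, and in mammals it also induces enzymes of drug metabolism in the liver. The gut of an earthworm takes up compounds from the soil that the animal swallows. The cerebral ganglion lies above the pharynx and serves the worm as a brain. A de novo assembly builds transcripts from the reads without a genome, so each feature is a stretch of assembled sequence rather than a known gene. The assembler numbers genes within a component, a group of assembled sequences that share some stretches, as alleles or close gene copies can, while splice forms carry the same gene number. The identifiers carry no gene name, description or position in the files, so no function is given to any feature and no pathway list or tissue marker could be read. All 11 features are named for this reason by identifier, without the TRINITY prefix.

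Several libraries shared a source, which sets how many independent samples stand behind each value. Over 2733 features that were present in some libraries and absent from others in each tissue, with the components of the 11 features left out, 10 of 136 pairs of libraries had correlations of presence above 0.6. The lowest of these was 0.677 and the highest of the other pairs 0.479. By these matches gut low dose 1 and 3 shared a source, gut high dose 1 and 3 shared another, and the 17 libraries came from 9 sources. A source is called a worm here, although it may be 1 animal or 1 pool. The gut rule thus compared 4 exposed worms with 2 control worms. Gut low dose 1 and 3 had 5 features with at least 50 counts in 1 library and 0 in the other, and gut high dose 1 and 3 had 9. In the 14 remaining pairs of replicates there were 381 to 1443 such features. Of the matched pairs 8 joined a gut with a ganglion library, and all 8 lay within 1 dose group. The ganglia control 2, low dose 3 and high dose 3 matched no gut library, so by this threshold their worms had no part in choosing the features. Control gut replicate 1 could not be matched, so a worm without a gut library means none among the libraries analysed. Ganglion high dose 3 had the highest correlations below the threshold, 0.479 with ganglion control 3 and 0.405 with gut control 3, although these lie in another dose group. Library totals ran from 12967310 to 18285270 counts in gut and from 12536754 to 16359630 in the ganglion.

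In the control guts the 11 features were almost absent. In whole tissue, fewer cells that carry a transcript and less RNA per cell cannot be told apart. Both control guts had 0 counts of 7 features. The other 4 had 1, 4, 10 and 20 counts over both libraries. Together the 11 features made up 0.582 and 2.02 CPM in the control guts, and between 288 and 489 CPM in the exposed guts.

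First in the rank of the rule, by the lowest exposed over the highest control value, was DN84716_c1_g1. It had 0 counts in gut control 2 and 3. In low dose gut 1, 2 and 3 it stood at 97.7, 223 and 90.3 CPM, and in high dose gut 1, 2 and 3 at 70.9, 61.9 and 102 CPM. With libraries of 1 worm averaged, the exposed guts had a mean of 116 ± 72.6 CPM (SD, n = 4 worms), at least 517-fold above a floor of 3 counts per control library. The highest value came from low dose gut 2, and no exposed gut came near the controls. Floors and counting intervals given here cover counting error only. Those for gut use the values that chose the features, so a high ratio follows from the rule. The gut intervals pool the counts of all exposed guts, so worms with repeated libraries weigh more.

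DN94199_c1_g2 had the same mean level but varied most between worms. It stood at 0 counts in both control guts, at 213, 10.1 and 215 CPM in low dose gut 1, 2 and 3, and at 83.5, 151 and 97.0 CPM in high dose gut 1, 2 and 3. The mean was 116 ± 87.1 CPM (SD, n = 4 worms), at least 517-fold above the floor. Its exposed values spanned a range of 21.4-fold, and low dose gut 2 was far below the other 5 exposed libraries.

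Both features were also the most abundant per length. In FPKM, which divides by the length of the feature, DN94199_c1_g2 averaged 170 and DN84716_c1_g1 106 over the 6 exposed guts. The ranges of this pair overlapped, from 13.3 to 286 and from 60.9 to 219 FPKM. The other 9 features averaged 6.16 to 20.3 FPKM, and neighbours in that order overlapped in their ranges. DN84716_c1_g1 lay above all of these 9 in range, and DN94199_c1_g2 did not because of low dose gut 2.

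DN99616_c6_g1 had 1 count in gut control 2 and 0 in gut control 3. It stood at 43.0, 16.1 and 43.0 CPM in low dose gut 1, 2 and 3 and at 22.1, 19.4 and 24.2 CPM in high dose gut 1, 2 and 3. The ratio of exposed to control counts was 751, with a 95% exact (Clopper-Pearson) counting interval of 135 to 29671. All 6 exposed guts lay far above both controls, with the low dose worm sequenced as libraries 1 and 3 highest.

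DN89951_c4_g1 and DN102191_c1_g2 varied less between exposed worms. DN89951_c4_g1 stood at 29.5, 21.9 and 25.3 CPM in low dose gut 1, 2 and 3 and at 25.3, 14.3 and 24.2 CPM in high dose gut 1, 2 and 3. DN102191_c1_g2 stood at 16.6, 18.7 and 13.9 CPM and at 14.3, 12.0 and 16.7 CPM in the same libraries, the narrowest range of the 11 at 1.56-fold. Both had 0 counts in the control guts, and their means of 22.1 ± 5.64 and 15.4 ± 2.75 CPM (SD, n = 4 worms) were at least 98.1-fold and 68.2-fold above the floor.

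DN97191_c2_g2, DN83720_c0_g2 and DN100308_c2_g5 were also at 0 counts in both control guts. DN97191_c2_g2 stood at 18.4, 19.9 and 19.6 CPM in low dose gut 1, 2 and 3 and at 11.03, 23.9 and 16.2 CPM in high dose gut 1, 2 and 3. DN83720_c0_g2 stood at 6.56, 7.28 and 7.99 CPM and at 7.48, 5.91 and 12.0 CPM. DN83720_c0_g2 had the lowest mean level of the 11 in CPM, but not per length, where it averaged 19.0 FPKM against 10.9 for DN97191_c2_g2. DN100308_c2_g5 stood at 23.9, 20.2 and 26.6 CPM in low dose gut 1, 2 and 3 and at 21.3, 5.20 and 28.2 CPM in high dose gut 1, 2 and 3. High dose gut 2 was its low sample and only just passed the minimum of 5 CPM. The exposed means were at least 84.7-fold, 33.5-fold and 83.7-fold above the floor for the 3 features in the order named.

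The remaining 3 features had a few counts in control gut. DN83174_c0_g2 stood at 0 and 0.291 CPM in gut control 2 and 3, and between 6.73 and 17.8 CPM in exposed gut. DN87472_c3_g2 stood at 0.451 and 0.291 CPM in the controls and between 7.16 and 14.6 CPM in exposed gut. DN95186_c0_g3, the last in rank, stood at 1.496 and 0 CPM in the controls and between 8.06 and 19.0 CPM in exposed gut. The ratios of exposed to control counts were 83.6, 31.8 and 16.3, with 95% counting intervals of 32.5 to 307, 17.2 to 66.5 and 10.47 to 26.7.

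**Figure D1:**
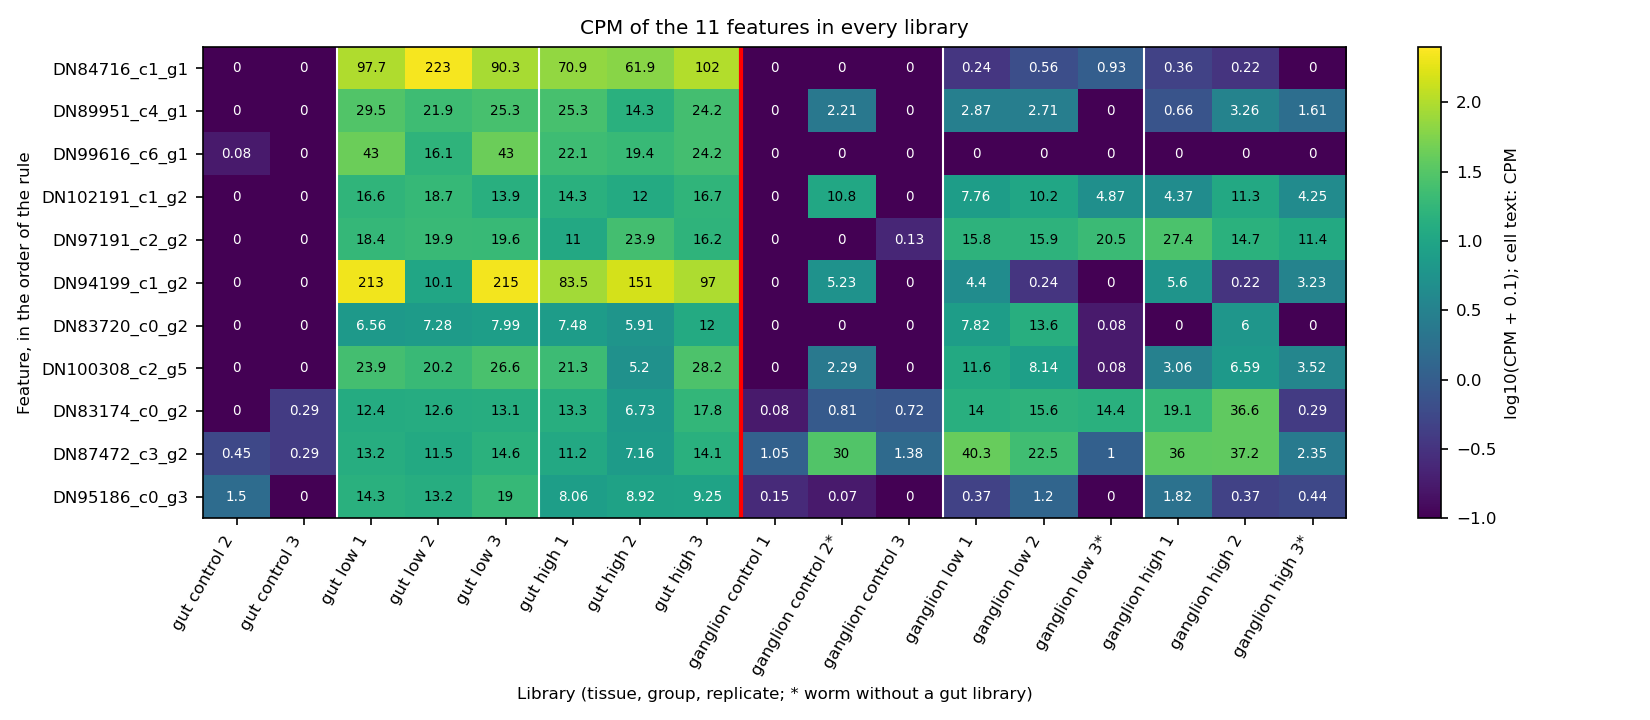
Heat map of the 11 features (vertical, in the order of the rule) in the 8 gut and 9 ganglion libraries (horizontal), coloured by log10(CPM + 0.1) with the CPM written in each cell; a red line parts the tissues and an asterisk marks worms without a gut library. Both control guts are at or near 0 in each row, and ganglion control 2 is not, with 5 features at 1 CPM or more.

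Between the doses the gut levels were similar, which the rule required within 3-fold. The ratio of mean high dose to mean low dose CPM ran from 0.565 for DN95186_c0_g3 to 1.16 for DN83720_c0_g2, and it was below 1 for 10 of the 11. With libraries of 1 worm averaged, the low dose mean was the higher one for 9. These ratios are of plain CPM. The TMM scaling factors of the gut libraries were 1.24, 1.20 and 1.24 in low dose 1, 2 and 3. In high dose 1, 2 and 3 they were 0.953, 0.668 and 1.07. Division by these factors raises every high dose value relative to the low dose ones, so the direction between doses depends on the scaling. Each dose is represented by 2 worms, and the difference between doses was not tested.

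The smallest ratio of lowest exposed to highest control value inside the rule was 5.39, for DN95186_c0_g3, and the nearest feature outside, DN105107_c2_g1, had 2.94. The member nearest the minimum was DN100308_c2_g5 at 5.20 CPM, and the nearest feature below it, DN99768_c2_g1, had 4.48. The number of features that met the rule depended on single worms, both control and exposed. Leaving out gut control 2 gave 102 features, and leaving out gut control 3 gave 46. Without gut low dose 2 it was 21 and without gut high dose 2 it was 44, while it stayed at 11 to 13 without any 1 of the other 4 exposed guts, each of which repeats a worm. All 11 features were among those kept in each of these sets, but this was largely fixed in advance. Leaving out a library cannot lower the lowest exposed value or raise the highest control value. Only the limit between the doses could have removed a feature, so a higher count without a library was largely fixed in advance too. The mirrored rule, with both control guts at least 5 CPM and at least 3 times the highest exposed gut, held for 32 features. It asks for the minimum in fewer libraries and sets no limit between the doses. The features that reached its minimum were not counted, so 32 and 11 cannot be compared directly.

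The 11 features were mostly shorter than the median abundant feature. The effective length that FPKM and counts imply ran from 415 bases for DN83720_c0_g2 to 2366 bases for DN89951_c4_g1, with a median of 1017. The 11755 features of at least 5 CPM in all exposed guts had a median of 2106 bases and quartiles of 1245 and 3312, and 10 of the 11 lay below that median. Each of the 11 came from a different component.

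By the ratio of mean exposed gut, with libraries of 1 worm averaged, to mean exposed ganglion, the features ranged widely. The gut mean is over 4 worms and the ganglion mean over all 6 exposed ganglia. These include ganglion low dose 3 and high dose 3, which matched no gut library. The ratios, here and in the next paragraph, are thus not paired within worms and may also hold differences between worms. For 5 of the 11 the gut mean was more than 10-fold higher. DN99616_c6_g1 had 0 counts in all 9 ganglia, and its exposed gut mean was at least 106-fold above a floor of 3 counts per exposed ganglion library. DN84716_c1_g1 stood at 0 in the 3 control ganglia and between 0 and 0.927 CPM in the 6 exposed ones, 302-fold below its mean in exposed gut. DN94199_c1_g2, DN95186_c0_g3 and DN89951_c4_g1 averaged 2.28, 0.6995 and 1.85 CPM in exposed ganglia, where the exposed guts were 51.0-fold, 16.9-fold and 11.9-fold higher. DN94199_c1_g2 and DN89951_c4_g1 still reached 1 CPM in 3 and 4 of the 6 exposed ganglia. These ratios describe features that were required to be high in exposed gut, and they carry no test.

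For the other 6 features the 2 means lay within 4-fold of each other. Mean exposed gut was 3.44-fold above mean exposed ganglion for DN100308_c2_g5, 2.15-fold for DN102191_c1_g2, 1.64-fold for DN83720_c0_g2 and 1.08-fold for DN97191_c2_g2. It was lower than the ganglion for the last pair, at 0.714 times for DN83174_c0_g2 and 0.487 times for DN87472_c3_g2. DN83720_c0_g2 reached 1 CPM in 3 of the 6 exposed ganglia. For this feature the tissues of 1 worm differed, since gut high dose 2 stood at 5.91 CPM and its matched ganglion, high dose 1, at 0 counts.

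**Figure D2:**
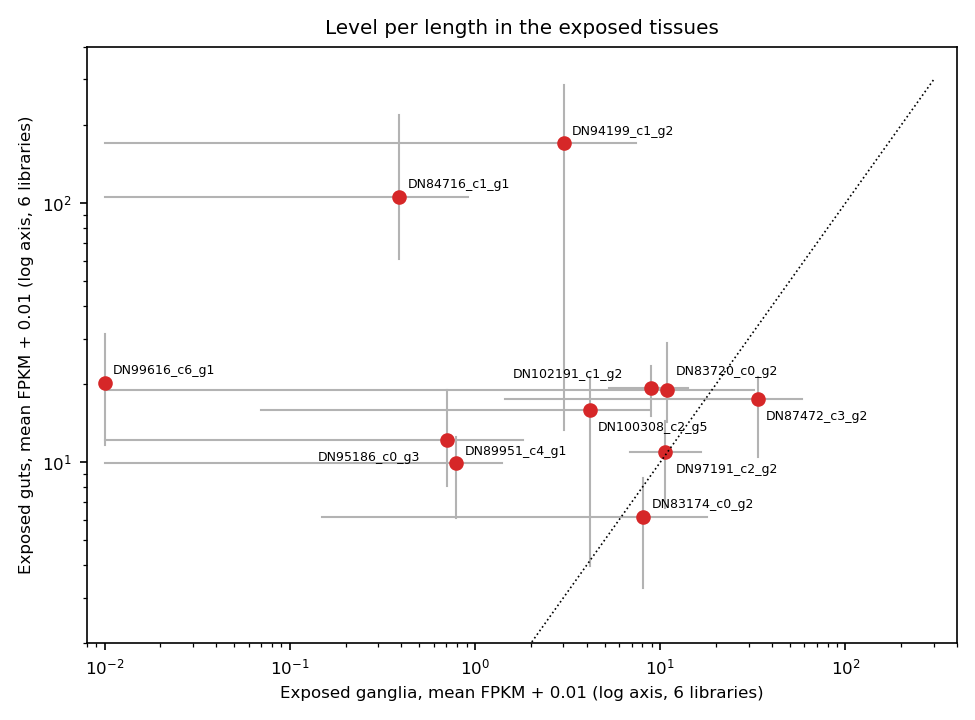
Mean FPKM + 0.01 of each feature in the 6 exposed ganglia (horizontal, log axis) against the 6 exposed guts (vertical, log axis), with grey lines from the lowest to the highest library and a dotted line of equal levels. DN84716_c1_g1 and DN94199_c1_g2 stand highest in gut, DN99616_c6_g1 is at 0 in the ganglia, and 6 features lie within 4-fold of the dotted line.

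The ganglia hold the values that the rule did not use, but 6 of the 9 come from worms whose guts it did use. At 1 CPM or more, ganglion control 1 and control 3, both from worms with a control gut, each held 1 of the 11 features. Ganglion control 2, from a control worm with no gut library, held 5. Ganglion low dose 1 and 2 held 8 each and high dose 1 and 2 held 7 each, all from worms with an exposed gut. The exposed worms with no gut library, low dose 3 and high dose 3, held 4 and 6.

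DN97191_c2_g2 was the 1 feature of the 11 that kept all exposed ganglia above all controls. It had 0 counts in ganglion control 1 and 2 and 0.131 CPM in control 3. It stood at 15.8, 15.9 and 20.5 CPM in ganglion low dose 1, 2 and 3 and at 27.4, 14.7 and 11.4 CPM in high dose 1, 2 and 3. The worms without a gut library follow the same order, with 0 counts in control 2, 20.5 CPM in low dose 3 and 11.4 CPM in high dose 3. Mean ganglion values were 0.0437 ± 0.0757 CPM in control, 17.4 ± 2.73 in low dose and 17.8 ± 8.48 in high dose worms (SD, n = 3 each). The control ganglia held 2 counts in all, and the ratio of exposed to control was 370 (95% counting interval 102 to 3059). Of the 48132 features tested in the ganglion, 1.51% had all 6 exposed libraries above all 3 controls.

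This difference did not pass the adjusted threshold in the ganglion. With edgeR's quasi-likelihood test, two-sided, the log2 fold of both doses over control was 8.31 (SE 0.98, adjusted p = 0.288 over all features). The low dose alone gave 8.30 (SE 0.9996, adjusted p = 0.144), and the high dose alone gave 8.32 (SE 1.0002, adjusted p = 0.608). DESeq2 gave an adjusted p of 4.9e-10 for both doses. The adjusted p ran from 6.7e-17 to 0.685 over 16 alternatives, 5 of which called the feature. Among these 5 is a fit of all libraries of both tissues, which includes the guts that chose the feature. Most of the ganglia come from worms whose guts chose it. These p-values, and those of the features below, are therefore not independent of the rule. Since 2 of the 3 control ganglia held no count, the size of the fitted fold depends on the prior count and is no bound.

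DN83174_c0_g2 was next nearest to that pattern. Its control ganglia stood at 0.0752, 0.811 and 0.721 CPM, its low dose ganglia at 14.0, 15.6 and 14.4 CPM and its high dose ganglia at 19.1, 36.6 and 0.293 CPM. Ganglion high dose 3, from a worm without a gut library, lay inside the control range, and the other 5 exposed ganglia lay above that range. Of the exposed ganglia, high dose 3 also had the highest presence correlation with a control library, 0.479 with ganglion control 3. The log2 fold of both doses over control was 4.84 with an SE of 1.32, and edgeR's adjusted p was 0.450. DESeq2 gave an adjusted p of 0.00105, within a range of 6.6e-09 to 0.685 over 16 alternatives, of which 2 called it.

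DN83720_c0_g2 had 0 counts in the 3 control ganglia and was detected in some exposed ones. It stood at 7.82, 13.6 and 0.0772 CPM in ganglion low dose 1, 2 and 3 and at 0, 5.996 and 0 CPM in high dose 1, 2 and 3. Both exposed worms without a gut library were at or near 0. With all 3 control ganglia at 0 counts the fitted fold depends on the prior count and is not given. For both doses over control edgeR's adjusted p was 0.469, and it ran from 5.8e-07 with no filter on low counts, the 1 call, to 0.999991 without ganglion high dose 2 over 16 alternatives.

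In 4 features at 0 in both control guts, ganglion control 2 held a signal. DN102191_c1_g2 stood at 0, 10.8 and 0 CPM in ganglion control 1, 2 and 3, and between 4.25 and 11.3 CPM in the exposed ganglia. Its highest control lay inside the exposed range. DN94199_c1_g2 stood at 0, 5.23 and 0 CPM in the controls and between 0 and 5.60 CPM in the exposed ganglia. DN100308_c2_g5 stood at 0, 2.29 and 0 CPM against 0.0772 to 11.6 CPM, and DN89951_c4_g1 at 0, 2.21 and 0 CPM against 0 to 3.26 CPM. In each of the 4 the only control worm with the feature was the worm that had no gut library.

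DN87472_c3_g2 showed the same control pattern at a higher level. It stood at 1.052, 30.004 and 1.38 CPM in ganglion control 1, 2 and 3. The low dose ganglia 1, 2 and 3 stood at 40.3, 22.5 and 1.004 CPM and the high dose ganglia at 36.0, 37.2 and 2.35 CPM. Among the worms without a gut library the control was the highest, more than 3-fold above both exposed worms. In the ganglia of worms with a gut library the exposed animals were all far above the controls.

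**Figure D3:**
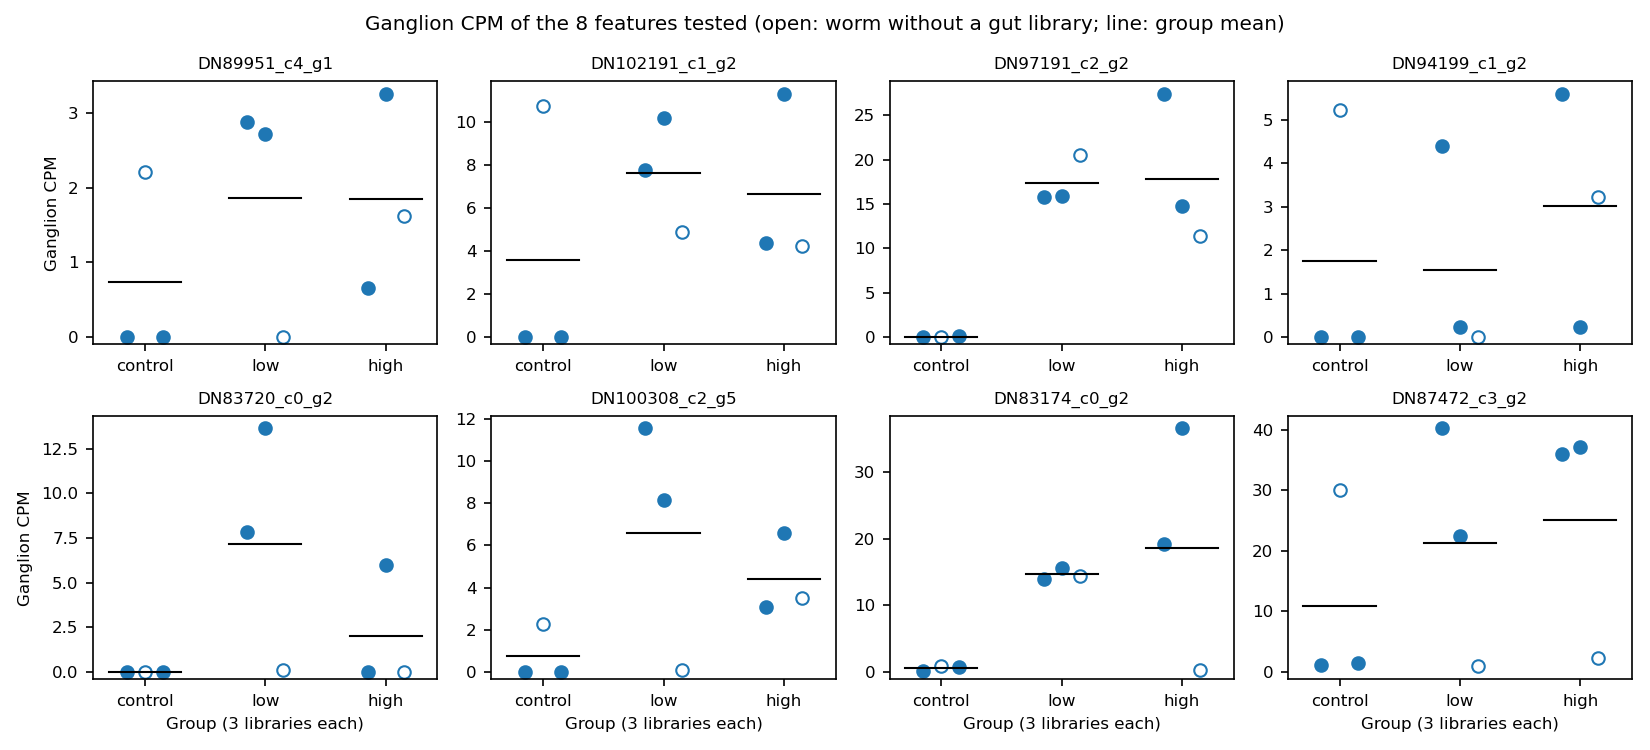
CPM of the 8 features tested in the ganglion (vertical, linear axes of different scale) in the 3 libraries of each group (horizontal); open circles are worms without a gut library, filled circles worms with one, and lines are group means. DN97191_c2_g2 alone has all 6 exposed ganglia above all 3 controls.

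Counted over the features, the mean of the exposed ganglia was above the control mean in 10 of 11, against 50.2% of the 48132 features tested, and DN99616_c6_g1 was at 0 in both. Of the 9 ganglia, 6 come from worms whose guts chose the features, so this count is a description. The filter on low counts kept 8 of the 11, leaving out DN84716_c1_g1, DN99616_c6_g1 and DN95186_c0_g3. The 50.2% is over features that passed this filter, while the 10 of 11 includes members that did not. With edgeR's quasi-likelihood test 0 of the 8 were called at the low dose, where 0.00208% of 48132 features were called (1 feature, not among the 11). None of the 8 was called at the high dose or over both doses, where 0% of all features were called. Before adjustment, edgeR's p was under 0.05 for 3 of the 8 in the low dose, 2 in the high dose and 3 in the combined comparison. These members were all higher. Under the same threshold were 8060, 1780 and 4784 of the 48132 features tested, of which 4898, 1291 and 2986 were higher. DESeq2 called 2 of the 8, DN97191_c2_g2 and DN83174_c0_g2, in each of the 3 comparisons, where 8.35%, 0.316% and 3.05% of all features were called at the low dose, the high dose and both doses. In the same order, edgeR with no filter called 4, 3 and 4 of the 10 members it tested, and 4.76%, 1.17% and 2.75% of all features. Limma called 1 of the 8 in each comparison, against 0.191%, 0.0145% and 0.0187% of all features on log2(FPKM + 1) and 0.193%, 0.0208% and 0.0478% on log2(FPKM + 0.1). With all libraries of both tissues in 1 edgeR fit, 2, 1 and 1 of the 11 were called, against 1.52%, 0.00975% and 0.00975% of all features, but that fit includes the guts that chose the features. The median log2 fold over both doses was 2.05 for the 8 and -0.05 for all features tested. Since most of these ganglia come from the worms whose guts chose the features, and the filter keeps a feature that is high in 1 group, this median is a description. For the same reasons the counts of members called or with p under 0.05 are descriptions too, also where set beside all features. Without ganglion control 2 the median was 7.80, over 9 features tested.

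In the 3 worms that had no gut library, 1 of the 11 features was at least 3-fold above the control at both doses, and 7.45% of all features tested met the same criterion. That feature was DN97191_c2_g2. At least 3-fold below the control at both doses was again 1 of the 11, DN87472_c3_g2, where 5.73% of all features were. With 1 library a group these counts have no test. Both shares are over features that passed the filter on low counts, while the 11 include members that did not. Ganglion high dose 3 had a presence correlation of 0.479 with ganglion control 3, so it may not be independent of a control worm that the rule used.

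The rest of a component told the 11 features apart in another way. DN84716_c1_g1 and DN99616_c6_g1 were alone in theirs, and the others shared a component with 1 to 5 features. For 7 of the 11 the rest of the component held under 1 CPM in control gut, so the whole component was near 0 in the control guts. For the other 4 the control guts expressed other features of the same component.

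DN102191_c1_g2 was a small part of an abundant component. Its partner DN102191_c1_g1 stood at 134 and 102 CPM in the control guts and between 53.9 and 101 CPM in the exposed guts. The 2 features together averaged 118 CPM in control and 98.6 CPM in exposed gut, a ratio of 0.836, so the component as a whole was not higher in exposed worms. The partner was present in all 9 ganglia as well, between 52.1 and 183 CPM.

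DN95186_c0_g3 had a partner with the opposite pattern. DN95186_c0_g1 stood at 7.74 and 10.3 CPM in gut control 2 and 3 and at no more than 0.433 CPM in any exposed gut. The component summed to 10.4 CPM in control and 14.8 CPM in exposed gut, a ratio of 1.43, against a ratio of 16.3 for the member alone. In the ganglia the partner stood at 1.20, 0 and 8.06 CPM in control 1, 2 and 3 and at 1.83 CPM in high dose 3, and at 0.154 CPM or less in the other exposed ganglia.

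DN83174_c0_g2 and its partner DN83174_c0_g1 differed in their proportion between ganglia. In the ganglia of control 1, 2 and 3 the partner stood at 16.9, 28.6 and 22.2 CPM while the member was under 1 CPM. In ganglion high dose 2 the member stood at 36.6 CPM and the partner at 0.148, and in ganglion high dose 3 the member stood at 0.293 and the partner at 26.1 CPM. The low dose ganglia 1, 2 and 3 held 14.0, 15.6 and 14.4 CPM of the member and 2.08, 17.5 and 9.04 CPM of the partner, and ganglion high dose 1 held 19.1 and 18.3 CPM. All 4 of these thus held both. The sum ran from 16.99 to 29.4 CPM in control ganglia and from 16.1 to 37.4 CPM in exposed ganglia, ranges that overlap. In gut the sum was 4.91 CPM in control and 14.8 CPM in exposed worms, a ratio of 3.02, so there the component differed in its sum as well.

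The component of DN87472_c3_g2 had 4 partners at 1 CPM or more in some library. Its sum was 15.1 CPM in control gut and 23.9 CPM in exposed gut, a ratio of 1.59 against 31.8 for the member alone. In the ganglia DN87472_c3_g3 stood between 10.3 and 32.8 CPM in control 1, control 3, low dose 3 and high dose 3, where the member was at 2.35 CPM or less. It stood between 2.31 and 3.78 CPM in low dose 1 and 2 and high dose 1 and 2, where the member was at 22.5 CPM or more. Ganglion control 2 held both, at 30.004 CPM of the member and 11.8 CPM of the partner.

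**Figure D4:**
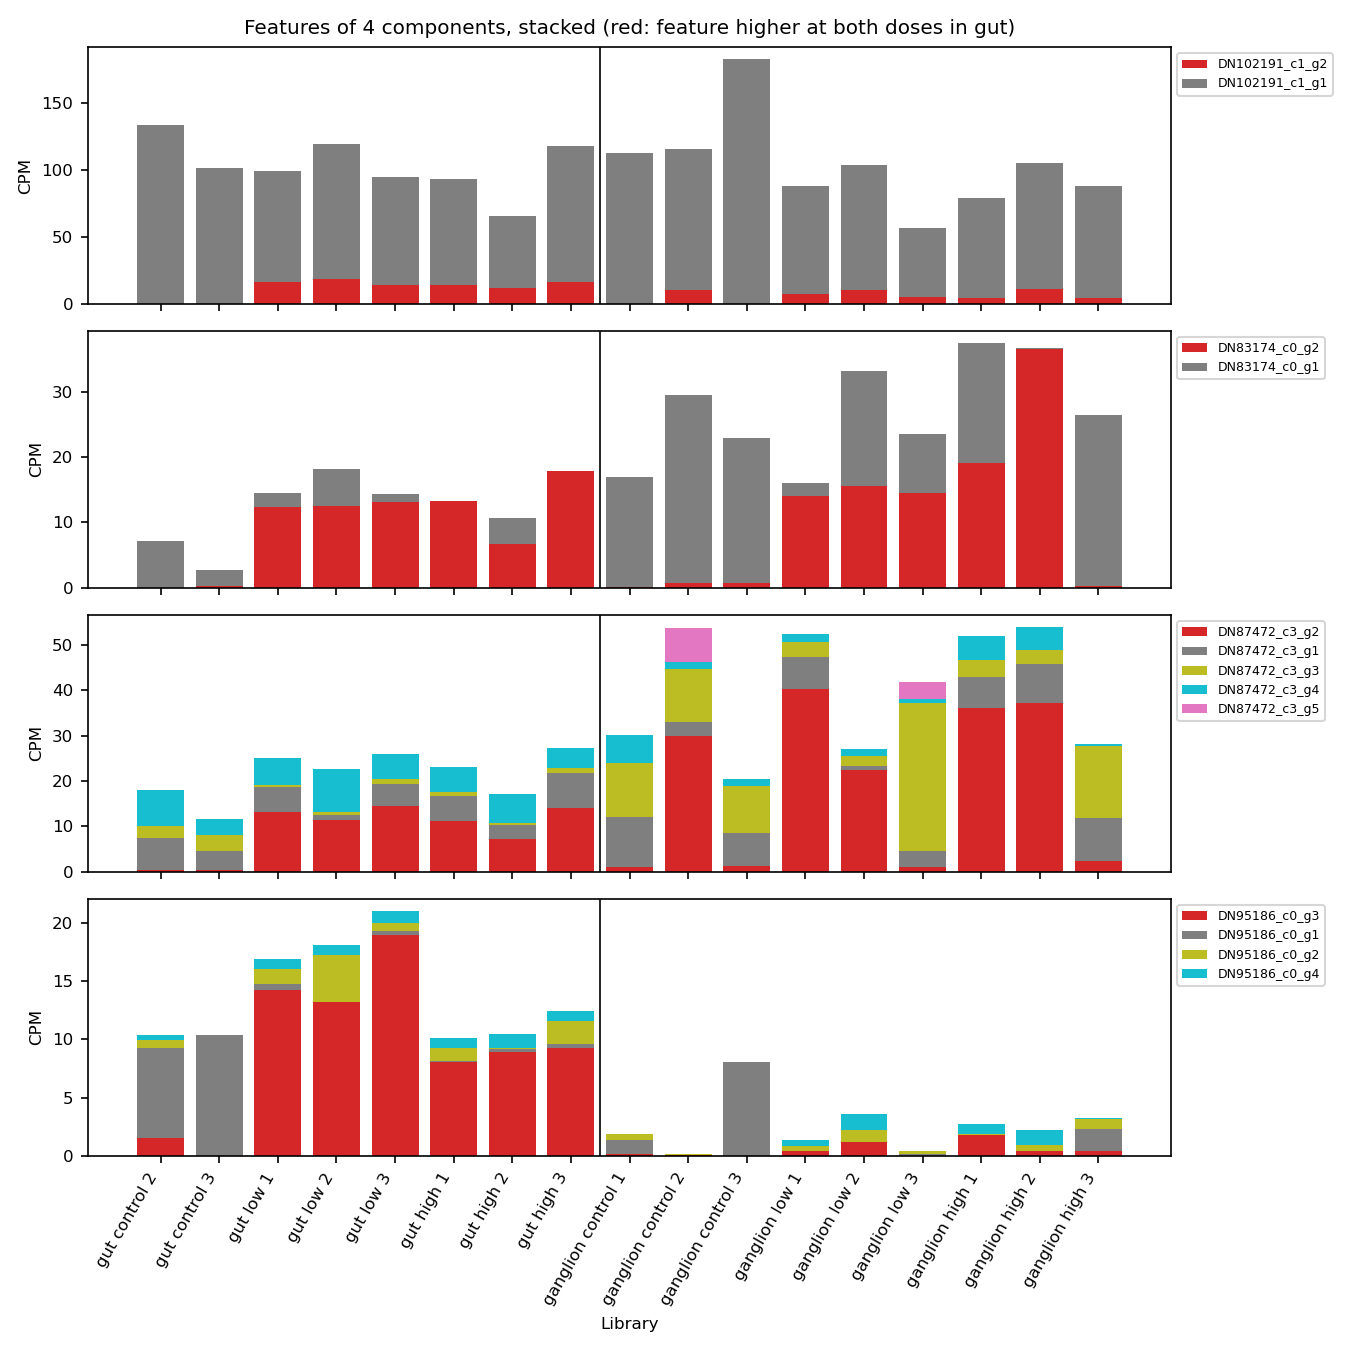
Stacked CPM (vertical, linear) of the features of 4 components in each gut and ganglion library (horizontal), with the member in red and partners of at least 1 CPM in some library in other colours. Grey DN95186_c0_g1 fills the control guts where red is low, and the bars of DN102191_c1 average 118 CPM in control and 98.6 CPM in exposed gut.

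For the 9 features with others in their component, the median log2 ratio of exposed to control gut for the rest of the component was 0.23, with 0.5 CPM added to both. The rest was lower in exposed gut for 4, the 4 components just described, and higher for 5, all with under 1 CPM in control gut. This uses the same gut contrast as the rule and is a description. Whether the presence of a feature follows the dose or the individual worm cannot be told apart in gut, where each control worm is 1 of only 2.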

How the data were processed

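Poly(A)-selected RNA of gut and cerebral ganglion was sequenced, and reads were assembled de novo, per the labels. The identifiers look like those of Trinity. CASAVA and DESeq2 are named, without versions or roles, in the submitters' processing notes. The counter, assembly filters and annotation are not given in the labels or files. Per the values, the authors deposited unscaled expected counts per assembled gene, and the authors also deposited FPKM values, scaled to length and library. Both tables hold 243619 features in 161562 components, for 17 of the 18 labelled samples.

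CPM values are counts over the column sum. The members and lists were chosen with earlier results of these data known. Ganglion counts were rounded and tested with edgeR 4.0.16 (quasi-likelihood, TMM, R 4.3.3). The package's filter had a minimum count of 10 and a minimum total of 15. The 9 libraries entered 1 fit with 1 coefficient per group. Benjamini-Hochberg adjustment ran over 48132 features, called under 0.05. The SE given with edgeR is the absolute log2 fold over the square root of F, an approximation, since the test reports none. Residual degrees of freedom were 6 and the biological coefficient of variation 79.3%. The fit was tested on simulated counts with a smaller spread than that of these ganglia. That test therefore does not show which changes the fit could find here. Alternatives were DESeq2 1.42.0, limma 3.58.1 on log2(FPKM + 1) and log2(FPKM + 0.1), RLE scaling, no filter, all libraries in 1 fit, the replicate number as a block and each library left out.

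Features were to be named by rank, level, nearness to a limit, ganglion p and component. As the rule left 11, all are named, along with partners singled out after their values were seen. Presence for matching worms was 5 counts or more, over features reaching 30 counts in some library of each tissue and 0 in another. Effective length is the median over libraries with at least 50 counts.

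Replicate numbers were checked as pairs by the correlation of deviations from group means. Same-number control and high dose ganglia gave 0.185, 0.194 and 0.222, and those of different number -0.214 to -0.0136. The control and low dose pairs of the same number gave -0.00929 to 0.0887 and those of both doses 0.0298 to 0.0952. The main fit, DESeq2 and limma have no term for the replicate number, so any such pairing is ignored there. Only the alternative with the number as a block uses it, and it ties in the low dose ganglia as well.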

Additional observations from a re-analysis of the deposited data

How the results depend on the processing

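The number of features meeting the rule was 32 with 2-fold in place of 3-fold, 73 with a minimum of 1 CPM, 6 with 10 CPM and 38 on FPKM, of which 9 were among the 11. It was 11 to 102 without single gut libraries, and 11 to 14 with a 5-fold limit, TMM scaling or repeated worms averaged. For the ganglion at the low dose, the high dose and both doses, features called were 4017, 152 and 1469 with DESeq2, 7128, 1755 and 4115 with no filter, 92, 7 and 9 with limma on log2(FPKM + 1), 93, 10 and 23 on log2(FPKM + 0.1), and 1094, 7 and 7 with all libraries in 1 fit. These tested 48132 features with DESeq2 and limma, 149605 with no filter and 71761 with all libraries. Leaving out single ganglia gave 0 to 175 at the low dose, 175 without low dose 3, and 0 in the other comparisons. Members called were 2, 2 and 2 of 8 with DESeq2, 4, 3 and 4 of 10 with no filter, 1, 1 and 1 of 8 with limma at either pseudocount and 2, 1 and 1 of 11 with all libraries, all higher. Leaving out single ganglia gave 0 to 1 at the low dose, with DN97191_c2_g2 called without low dose 3 (adjusted p = 0.0471, edgeR), and 0 otherwise. With the replicate number as a block the low dose count fell from 1 to 0 features, and no member's call changed at any dose. The log2 fold of DN94199_c1_g2 changed sign. At the low dose it was -0.16, but 0.057 and 0.60 by limma, and -3.72 to 7.36 without single ganglia, above 0 without control 2, low dose 2 or low dose 3. Over both doses it was 0.40, and -1.39 to 7.92 without single ganglia, below 0 without control 1, control 3, low dose 1 or high dose 1. The median log2 ratio of exposed over control gut for the rest of a component was 0.75 with an offset of 0.1 CPM, against 0.23. The causes of these changes were not tested. The count of 1 feature in worms without a gut library held at 2-fold, 5-fold, TMM scaling and with 0.5 CPM added to the control. Depth limits the control guts, where 3 counts are up to 0.225 CPM.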
